A study of Mus musculus with 2 samples.

Results

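The genes described here are 40 cell cycle genes of mouse skin, 18 that serve the G1/S transition and DNA replication and 22 that serve G2 and mitosis, out of the 27998 genes of the deposited tables. They were chosen by name as a gene set and not by their values, and all 40 had UMIs in both libraries. Droplet-based single-cell RNA-seq (scRNA-seq) had been run on ear skin of male ICR mice, 7 to 8 weeks old, with 1 library of untreated control skin and 1 library of skin with allergic contact dermatitis (ACD). In the ACD mice, 2,4-dinitrofluorobenzene (DNFB), a small contact allergen, was painted on the back at 1.0% and then, 6 days later, on the ears at 0.2%, and the ears were taken 60 hr after this second exposure. How many animals were pooled in a library is not given in the sources used here. With 1 library per condition no test between conditions was possible, and the condition and the library cannot be told apart.

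Cells that divide first license their replication origins and make nucleotides, then copy their DNA, and then assemble a spindle and segregate their chromosomes. The transcripts of these steps are made in waves. The E2F factors drive the G1/S genes. The DREAM complex, which contains MuvB, holds cell cycle genes down in resting cells, and MuvB later serves the G2/M wave. Promoter elements of that wave are the cell cycle genes homology region (CHR), which MuvB binds, and the CCAAT box. In skin, basal keratinocytes divide throughout life, whereas T cells that have met their antigen divide in bursts.

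Cells were kept with 201 to 4999 genes, at most 25000 UMIs (unique molecular identifiers, each standing for 1 captured transcript) and under 8% mitochondrial UMIs, which left 12213 control and 11665 ACD cells with medians of 6850 and 7447 UMIs. The tables held 99037698 UMIs from 12895 barcodes in control and 126566870 UMIs from 13163 barcodes in ACD. Both libraries shared 50 barcodes, 47 of them among kept cells. Of 39 clusters, 33 were given a class name with "-like" from marker genes, and 6 stayed unnamed. The T/NK/ILC-like cells were divided further by UMIs of marker genes, and those that met no gate, including any type 2 innate lymphocytes, are called ungated. Names and thresholds were rebuilt here after the clusters had been seen, so cells in a class may differ from those the study gave that name. UMIs of Cd3g were seen in 80.7% of T/NK/ILC-like cells in control and in 80.0% in ACD, of Krt14 in 97.2% and 98.5% of keratinocyte-like cells and of Pecam1 in 83.4% and 85.4% of endothelial-like cells, but those of Col2a1, the cartilage collagen, in only 44.2% of chondrocyte-like cells of either library.

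A cell was said to pass the gate when it held at least 3 UMIs of Mki67, Top2a and Birc5 together. Mki67 coats mitotic chromosomes, Top2a untangles DNA strands and Birc5 (survivin) belongs to the chromosomal passenger complex. Levels are the UMI sum of a gene in a class per 1000000 UMIs of that class. Ranges in parentheses are 95% intervals, Clopper-Pearson for shares and exact Poisson or conditional for levels and log2 ratios, and they cover counting error only. Intervals of levels and of their ratios treat UMIs of the same cell as independent. They are too narrow where few cells hold most of the UMIs. For a share of 0, the limit given is 3 cells over the number of cells. A member was called at least 2-fold higher or lower from levels with 5 UMIs per 1000000 added on each side, where both libraries together held at least 20 UMIs. Other log2 ratios of ACD over control have nothing added.

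The promoters show what the names of both groups do not, namely which elements the members carry. The bases upstream of the start are printed for the 3 gate genes, for the G1/S member with the most UMIs (Pcna) and, chosen after their matches were seen, for Cdk1 and Mcm6, from RefSeq on GRCm38.p6. Runs read 5′ to 3′ on the strand of the gene, bases inside the annotated gene are left out, and capitals mark matches to the CHR, the CCAAT box or an E2F site on either strand.
Mki67 (chr7:135716380-135716579, minus strand): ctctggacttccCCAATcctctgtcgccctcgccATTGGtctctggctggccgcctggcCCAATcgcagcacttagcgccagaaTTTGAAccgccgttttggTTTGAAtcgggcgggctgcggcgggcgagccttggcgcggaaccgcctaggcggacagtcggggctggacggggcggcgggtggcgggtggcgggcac
Top2a (chr11:99024190-99024389, minus strand): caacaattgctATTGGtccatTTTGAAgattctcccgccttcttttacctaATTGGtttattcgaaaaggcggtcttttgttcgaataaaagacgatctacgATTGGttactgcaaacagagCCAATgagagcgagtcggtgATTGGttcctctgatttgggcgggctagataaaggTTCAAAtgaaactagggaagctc
Cdk1 (chr10:69352939-69353112, minus strand): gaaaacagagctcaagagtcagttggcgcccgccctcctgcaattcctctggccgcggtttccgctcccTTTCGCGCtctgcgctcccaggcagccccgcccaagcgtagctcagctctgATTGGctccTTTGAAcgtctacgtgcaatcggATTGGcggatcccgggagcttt
Birc5 (chr11:117849037-117849236, plus strand): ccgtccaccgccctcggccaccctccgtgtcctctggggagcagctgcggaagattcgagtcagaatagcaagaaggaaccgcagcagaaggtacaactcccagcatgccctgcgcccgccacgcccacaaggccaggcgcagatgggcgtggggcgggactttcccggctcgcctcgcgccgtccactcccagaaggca
Mcm6 (chr1:128359706-128359905, minus strand): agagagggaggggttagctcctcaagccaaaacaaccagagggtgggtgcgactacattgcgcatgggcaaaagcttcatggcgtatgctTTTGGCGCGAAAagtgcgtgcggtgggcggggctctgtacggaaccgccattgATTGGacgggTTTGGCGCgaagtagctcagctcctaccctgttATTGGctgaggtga
Pcna (chr2:132253315-132253380, minus strand): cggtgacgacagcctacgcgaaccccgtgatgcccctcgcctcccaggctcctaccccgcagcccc
The Mki67 run held 2 CHR matches, the nearer ending 93 bases before the start, and 3 CCAAT matches. The Top2a run held 2 CHR and 5 CCAAT matches. The Cdk1 run held a CHR match 71 to 66 bases before the start, between CCAAT matches, and further out an E2F match. The Mcm6 run held 3 E2F matches, of which the outer pair overlap, and no CHR match. Neither the Birc5 run nor the short Pcna run held a match, but a CCAAT match of Pcna lies in the bases nearer its start that are not printed. No match says only that these letters are not in this window.

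Over the 200 bases before the start, 33 of the 40 members had an entry in the table. The CHR (TTTGAA) was found in 7 of 18 G2/M members (38.9%), in 1 of 15 G1/S members (6.67%) and in 14.4% of all 27025 genes. Its carriers were Mki67, Top2a, Ube2c, Cdk1, Ccnb2, Cdc20, Kif11 and, in the G1/S group, Mcm2. The CCAAT box (CCAAT) was found in 16 of 18 G2/M members (88.9%), in 8 of 15 G1/S members (53.3%) and in 32.7% of all genes. An E2F site (TTTCGCGC, TTTGGCGC or TTTCCCGC) was found in 5 of 15 G1/S members (33.3%), in 1 of 18 G2/M members (5.56%) and in 1.52% of all genes, and its G1/S carriers were Mcm5, Mcm6, Mcm7, Cdc6 and Hells. The CHR and the CCAAT box stood together in 7 of 18 G2/M members and in 4.32% of all genes. Both strands were searched, and a match is a description of letters, not of binding. Ccna2, Ccne2, Aurkb, Tpx2, Stmn1, Mcm4 and Gins2 had no entry.

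Over all kept cells, 106 of 12213 control cells (0.868%, 0.711 to 1.05) and 596 of 11665 ACD cells (5.11%, 4.72 to 5.52) passed the gate, a log2 ratio of 2.56 (2.26 to 2.87). The 40 members together took up 263 of 1000000 UMIs in control and 669.5 in ACD. The G2/M members went from 103 to 367 (log2 1.84, 1.81 to 1.87) and the G1/S members from 160.3 to 302 (log2 0.91, 0.89 to 0.94). The members outside the gate were thus higher as well as its own 3 genes. Of the 40 members, 12 were at least 2-fold higher in ACD, 8 of 22 in G2/M and 4 of 18 in G1/S, beside 2.84% of the 16618 genes tested in all cells. The median log2 ratio of the members was 0.79 with 5 added, against -0.01 for all genes tested.

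The UMI sums of the gate genes had no gap at the cut of 3. In control 11793 cells held none of these UMIs, 277 held 1, 37 held 2, 17 held 3 and 60 held 10 or more. In ACD 9883 cells held none, 919 held 1, 267 held 2, 102 held 3 and 308 held 10 or more. Of the passing cells, 37 of 106 in control and 190 of 596 in ACD held only 3 to 5. All 3 genes were seen in 67.9% of the passing control cells and in 59.4% of the passing ACD cells, and 10.4% and 10.7% passed on a single gene. Some classes held few or no passing cells, but they are among the lowest shares and do not measure the background of the gate. None of 268 basophil-like ACD cells passed at a median of 4022 UMIs, which allows a share of up to 1.12%. None of 213 melanocyte-like ACD cells passed at a median of 6200 UMIs, which allows up to 1.41%. Of 3731 chondrocyte-like ACD cells, 2 passed (0.0536%) at a median of 9136 UMIs. Higher ACD shares stood in VSMC-like (1.67%), muscle-like (2.94%) and mast cell-like cells (3.90%, at a median of 1751 UMIs).

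**Figure D1:**
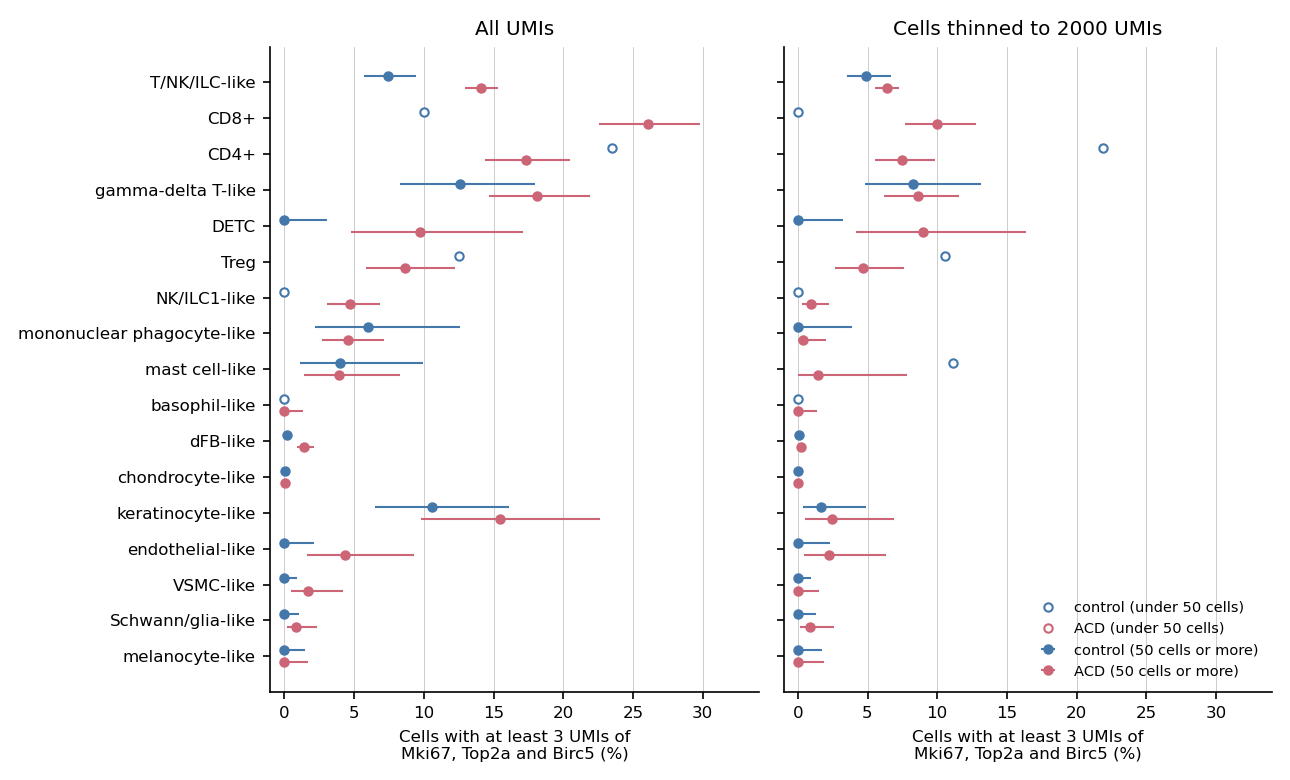
Share of cells (percent, x axis) with at least 3 UMIs of Mki67, Top2a and Birc5 in each class (y axis), in control (blue) and ACD (red), with all UMIs on the left and with each cell thinned to 2000 UMIs on the right. Points are shares, lines are 95% Clopper-Pearson intervals, and open points stand for fewer than 50 cells; CD8+ cells of ACD lie highest at 26.1% with all UMIs, and the T/NK/ILC-like pair of 7.43% and 14.1% comes closer together, at 4.91% and 6.39%, after thinning.

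Most of the passing cells were lymphocytes. T/NK/ILC-like cells made up 6.83% of control and 28.7% of ACD cells, held 24.2% and 66.0% of all member UMIs, and gave 62 of the 106 passing control cells (58.5%, 48.5 to 68.0) and 473 of the 596 passing ACD cells (79.4%, 75.9 to 82.5). Within ACD, CD8+ cells gave 25.5% of the passing cells, CD4+ cells 18.1% and gamma-delta T-like cells 13.9%. Keratinocyte-like cells gave 17.9% of the passing cells in control and 3.52% in ACD, but 28.1% and 11.7% with all deposited barcodes, of which 20 and 85 passing keratinocyte-like ones lay above the UMI or gene limit. Dermal fibroblast-like (dFB-like) cells gave 6.604% and 4.03%.

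The difference of 4.24 percentage points between the libraries was split by arithmetic into 2.81 points from class sizes and 1.43 points from shares within classes. CD4+ cells contributed 1.04 points through size and -0.18 through share. CD8+ cells contributed 0.89 and 0.41, and gamma-delta T-like cells 0.35 and 0.15. In dFB-like cells the signs were opposite, with -0.13 through size and 0.28 through share. The share part also takes in differences in the make-up of a class. Unnamed cells contributed 0.01 and 0.25, and doublet calls fell on 29 of their 35 passing ACD cells. Had the ACD classes had control sizes, 2.04% of ACD cells would have passed, and had the control classes had ACD sizes, 3.42% of control cells would have passed. The control shares of CD8+ and CD4+ cells rest on 1 of 10 and 8 of 34 cells, so their points and the 3.42% are loose.

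**Figure D2:**
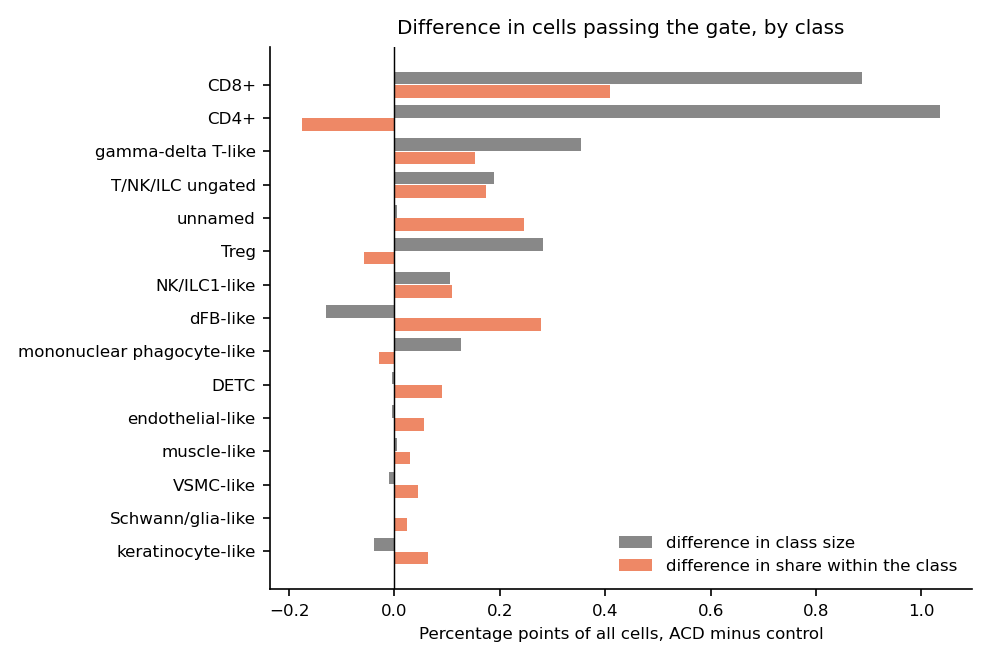
Percentage points (x axis) by which each class (y axis) contributed to the difference between ACD and control in the share of all cells passing the gate, divided into a difference in class size (grey bars) and in the share within the class (orange bars). CD4+ and CD8+ cells have the longest grey bars at 1.04 and 0.89 points, and in dFB-like, DETC and endothelial-like cells the orange bar is the longer.

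Among T/NK/ILC-like cells, 62 of 834 control cells (7.43%, 5.75 to 9.43) and 473 of 3349 ACD cells (14.1%, 12.96 to 15.3) passed, a log2 ratio of 0.93 (0.54 to 1.33). The median depth differed as well, at 3491.5 and 5195 UMIs. After each cell was thinned to 2000 UMIs, with 60 control and 109 ACD cells too shallow to enter, the shares were 4.91% and 6.39%, and the interval of the log2 ratio of 0.38 reached from -0.12 to 0.92. The level of the gate genes per UMI was nearly equal, at 371 in control and 377 in ACD (log2 0.03, -0.06 to 0.11). At this depth, a gate of 1 UMI gave 12.3% and 22.1% (log2 0.85, 0.54 to 1.17). The share was thus higher in ACD as counted, and at equal depth with the looser gate but not detectably with the 3-UMI gate.

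The class also held other subsets in each library, with 10 CD8+ and 34 CD4+ cells in control and 583 and 624 in ACD, so its sums mix subsets. Both groups of members are given with this in view. G1/S members summed to 529 in control and 793 in ACD (log2 0.58, 0.51 to 0.65), and G2/M members to 1209 and 1289.6 (log2 0.09, 0.05 to 0.14). When every cell counted equally instead, the log2 ratios were 0.66 and 0.43. Scaling by median-of-ratios size factors, which moved the median of all genes by 0.12 on the log2 scale, gave 0.70 and 0.21. Within subsets, the G1/S log2 ratio was 0.16 in gamma-delta T-like cells, 0.75 in DETC, 0.68 in ungated cells and -0.27 in CD4+ cells. Of 40 members, 1 was at least 2-fold higher in ACD, beside 1.93% of the 11754 genes tested in T/NK/ILC-like cells. It was Ccne1, the cyclin that starts S phase with Cdk2, which went from 19.2 (14.9 to 24.5) to 46.4 (43.6 to 49.4), with a log2 ratio of 1.27.

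The licensing genes lay next to it. Mcm6, a subunit of the helicase that unwinds origins, went from 51.5 (44.1 to 59.8) in control to 88.2 (84.3 to 92.3) in ACD. Mcm3, of the same ring, went from 43.5 to 62.0, Mcm5 from 24.3 to 47.4 and Mcm4 from 34.9 to 58.6. Gins2, which belongs to the active helicase, went from 8.88 to 21.1, and its intervals did not overlap. Of the nucleotide genes, Rrm2, the regulated subunit of ribonucleotide reductase, went from 61.3 (53.2 to 70.2) to 88.6 (84.6 to 92.7), and Tyms, which makes thymidylate, from 31.1 to 56.9. Rrm1, the large reductase subunit, stood at 42.6 and 38.8, and Pcna, the sliding clamp, at 50.3 and 50.1, with overlapping intervals. The median log2 ratio with 5 added was 0.53 over G1/S members, 0.01 over G2/M members and -0.10 over all genes tested.

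The mitotic members hardly differed per UMI in T/NK/ILC-like cells. Mki67 stood at 127 (115 to 139) in control and 121 (116 to 126) in ACD. Top2a stood at 159 (146 to 173) and 159 (154 to 164), and Birc5 at 85.3 (75.7 to 95.7) and 97.5 (93.3 to 102). Stmn1 (stathmin), which destabilises microtubules, stood at 208 (193 to 224) and 225 (219 to 232), and Ube2c, the ubiquitin-conjugating enzyme of the anaphase-promoting complex, at 118 and 119. Cenpf, a kinetochore protein, was at 61.9 (53.8 to 70.9) and 49.5 (46.5 to 52.6), with intervals that did not overlap. Cenpa, the histone H3 variant of centromeres, went the other way, from 105 (94.7 to 117) to 151 (146 to 156). Cenpa was also found in 34.6% of the ACD cells that did not pass the gate, with Stmn1 next among the G2/M members outside the gate at 19.9%.

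**Figure D3:**
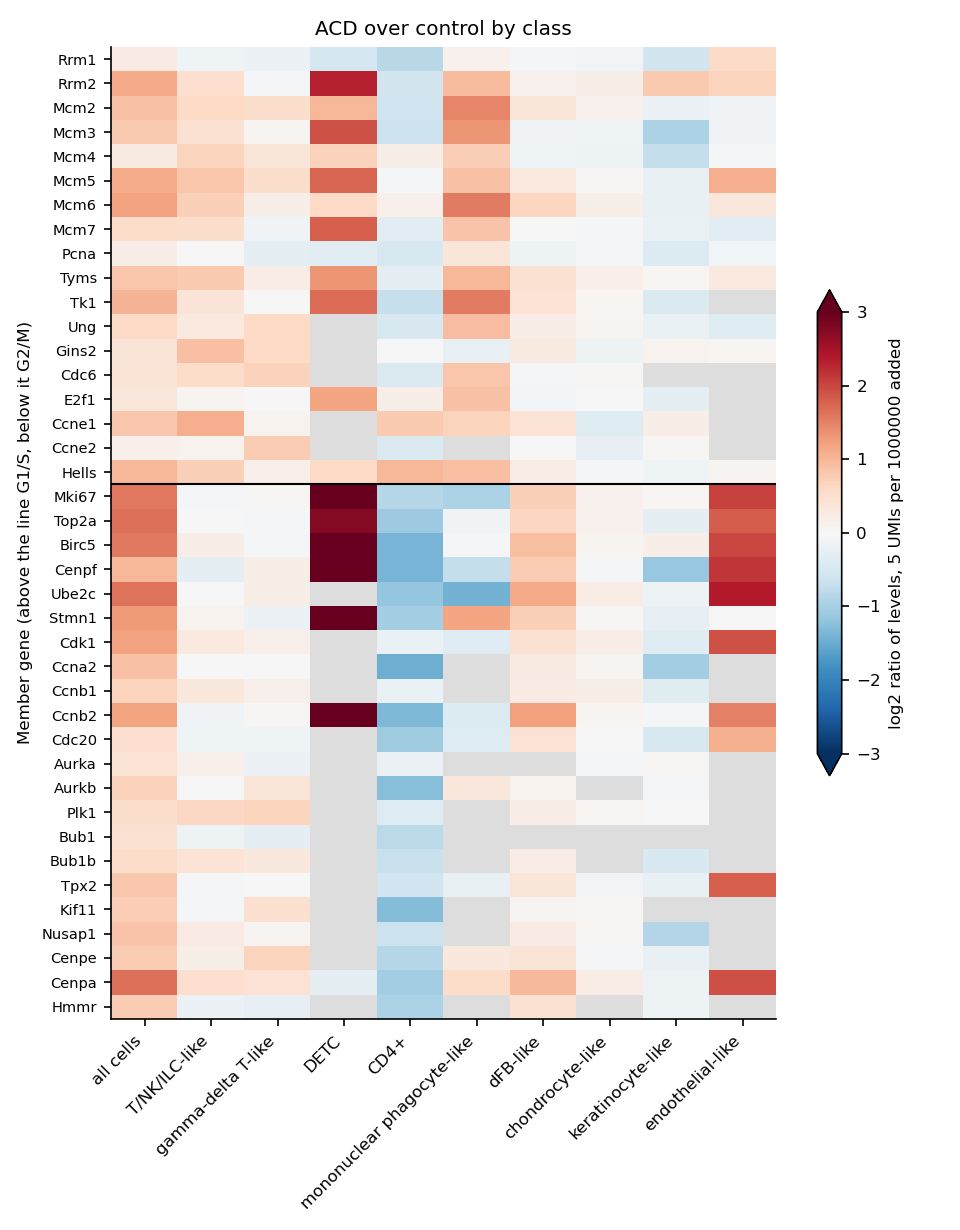
Log2 ratio of ACD over control (colour, with 5 UMIs per 1000000 added on each side) for the 40 members (rows, G1/S above the line and G2/M below it) in all cells and in 9 classes (columns), with grey where both libraries together held fewer than 20 UMIs. All cells are red throughout, the T/NK/ILC-like column is pale red in its G1/S part and near white in its G2/M part, and DETC and endothelial-like cells have the darkest G2/M fields.

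The T cell subsets were of unequal size in control. CD8+ cells of ACD passed most often, at 152 of 583 (26.1%, 22.6 to 29.8), and their interval did not overlap that of the next subset. Gamma-delta T-like cells came next at 83 of 459 (18.1%, 14.7 to 21.9), then CD4+ cells at 108 of 624 (17.3%, 14.4 to 20.5), DETC at 10 of 103 (9.71%, 4.75 to 17.1), ungated cells at 66 of 714 (9.24%, 7.22 to 11.6), Treg cells at 29 of 334 (8.68%, 5.89 to 12.2) and NK/ILC1-like cells at 25 of 532 (4.70%, 3.06 to 6.86). Each of these overlapped its neighbour in the order. CD8+ cells were also the deepest, with a median of 6998 UMIs against 4328.5 in NK/ILC1-like cells. Thinned to 2000 UMIs, the shares were 10.02% (7.69 to 12.8) in CD8+, 8.59% in gamma-delta T-like and 7.48% in CD4+ cells, and these intervals overlapped, whereas NK/ILC1-like cells stood at 0.965% (0.314 to 2.24).

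Control held only 10 CD8+, 34 CD4+, 24 Treg and 9 NK/ILC1-like cells, so their control values are loose. Of the control cells, 1 CD8+, 8 CD4+ (23.5%, 10.7 to 41.2) and 3 Treg cells (12.5%, 2.66 to 32.4) passed, and none of the NK/ILC1-like cells, which allows a share of up to 33.3%. These intervals overlapped those of ACD. Thinned to 2000 UMIs, however, 7 of 32 control CD4+ cells (21.9%, 9.28 to 40.0) and 46 of 615 ACD cells (7.48%, 5.53 to 9.85) passed, and the log2 ratio of -1.55 had an interval from -2.71 to -0.16. With a gate of 1 UMI at this depth it was -0.69 (-1.54 to 0.30), and at 1000 UMIs the 3-UMI gate gave -1.88 (-4.11 to 1.35), so the interval held 0 in these settings. With all UMIs and the 3-UMI gate, the log2 ratio was -0.44 (-1.47 to 0.81). It was 0.14 when sub-clusters of the T/NK/ILC-like cells took the place of the marker gates, so its sign depends on how CD4+ cells are set. Per UMI, CD4+ cells held less of the G2/M members in ACD, at 2792 (2548 to 3053) in control and 1311 (1277 to 1345) in ACD, while G1/S members stood at 1083 and 899. Of 40 members, 11 were at least 2-fold lower, all in G2/M, beside 4.47% of the 8651 genes tested in CD4+ cells. Top2a went from 348 (265 to 447) to 161 (149.7 to 174), Cenpa from 301 to 145 and Stmn1 from 504 to 246, but the control values rest on 60, 52 and 87 UMIs from 34 cells. Of the control UMIs of G2/M members outside the gate, 295 came from the 8 passing cells and 40 from the rest. The counting intervals treat UMIs of the same cell as independent, so these CD4+ levels and counts hang on few control cells. Of other G2/M genes outside the set, 15 of 48 were at least 2-fold lower in CD4+ cells, beside the same 4.47% of all genes. Among them was Pttg1 (securin) with 232 in control and 59.4 in ACD.

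In Treg cells, the G2/M members also stood lower in ACD, at 2446 (2119 to 2810) and 1068 (1021 to 1115), and the G1/S members higher, at 440 (308 to 609.7) and 759.6 (720.6 to 800.1). The control G2/M level rests mainly on 3 passing cells, with a median of 38 G2/M UMIs outside the gate, against 0 in the other 21. Its interval treats UMIs of the same cell as independent and is too narrow for so few cells. Mcm6 stood at 97.9 in control and 121 in ACD. CD8+ cells held 1668 of G2/M members per 1000000 UMIs in ACD, and 953 in control from 39 UMIs. In them, Stmn1 reached 292 in ACD, Top2a 188, Ube2c 177, Birc5 152, Mki67 139 and Rrm2 127. CD8+ cells had the highest ACD level of any class for Stmn1, Birc5 and Rrm2, and gamma-delta T-like cells for Mki67, Top2a and Ube2c.

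Gamma-delta T-like cells, which carried Cd163l1 in 61.8% of control and 82.6% of ACD cells, were common enough in control to compare. Of 199 control cells 25 passed (12.6%, 8.30 to 17.98), and of 459 ACD cells 83 (18.1%, 14.7 to 21.9), a log2 ratio of 0.53 (-0.13 to 1.23) whose interval holds 0. Thinned to 2000 UMIs, the shares were 8.29% and 8.59%. G2/M members summed to 1602 and 1670.5 (log2 0.06, -0.02 to 0.14) and G1/S members to 694 and 773 (log2 0.16, 0.03 to 0.28). Mki67 stood at 162 (138 to 189) and 166 (152 to 181), Top2a at 218 (189 to 249) and 212 (196 to 229), and Stmn1 at 294 (262 to 330.3) and 258 (240.4 to 277). Of 40 members none was 2-fold higher or lower, beside 1.82% of the 8794 genes tested that were higher and 1.11% that were lower in gamma-delta T-like cells. These cells thus held much of the set in untreated skin.

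Dendritic epidermal T cells (DETC), the gamma-delta T cells that sit between keratinocytes and carry Cd7 and Avil, were present in similar number in both libraries. None of 118 control cells passed, which allows a share of up to 2.54%, and 10 of 103 ACD cells passed (9.71%, 4.75 to 17.1). The median depth was 3318 UMIs in control and 4478 in ACD. Thinned to 2000 UMIs, 0 of 112 control cells and 9 of 100 ACD cells (9%, 4.20 to 16.4) passed. G2/M members went from 228 (183 to 280) to 1084 (994 to 1181), with a log2 ratio of 2.25 (1.93 to 2.59), and G1/S members from 455 (392 to 527) to 766 (690.3 to 847), with a log2 ratio of 0.75 (0.49 to 1.01). The intervals of these levels treat UMIs of the same cell as independent, and the 10 passing cells weigh heavily in the ACD sums. The cluster of these cells, led by Cd7 and Avil, held 139 control and 129 ACD cells, of which 2 and 16 passed, so the difference was also seen without the marker gate. Cd163l1, which marks the gamma-delta T-like class, was seen in 2.54% of control and 10.7% of ACD cells within the DETC gate. In ACD it was seen in 0 of the 10 passing cells and in 11 of the 93 others. With so few passing cells, these counts cannot tell whether the passing cells differ from the others.

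Of the 20 members with enough UMIs in DETC, 13 were at least 2-fold higher in ACD, 7 of 13 in G1/S and 6 of 7 in G2/M, beside 3.58% of the 5021 genes tested. These members reached 20 UMIs mostly through ACD, and of the 3 with 20 UMIs in control alone (Rrm1, Pcna and Cenpa) 0 were 2-fold higher, so the count describes the members and gives no separate support. Mki67 went from 7.51 (1.55 to 21.9) to 123 (93.5 to 158), and Top2a from 25.0 (12.0 to 46.0) to 196 (159 to 239). Birc5 had no UMI in control and 29 in ACD, at 59.2 (39.7 to 85.1), which puts its log2 ratio at 2.98 or more when 3 control UMIs are taken as the floor. Stmn1 went from 22.5 (10.3 to 42.7) to 249 (207 to 297), while Cenpa stood at 143 and 116 with overlapping intervals. In G1/S, Mcm7 went from 20.02 (8.64 to 39.4) to 81.7 (58.4 to 111), but Rrm1 stood at 148 (112 to 190.4) and 100.1 (74.0 to 132) and Pcna at 97.6 and 77.6. Of other S phase genes outside the set, 9 of 16 were at least 2-fold higher in DETC, beside the same 3.58% of all genes, with Fen1, a flap nuclease, at 7.51 and 47.0. The DETC that did not pass differed little, with log2 ratios of 0.27 (-0.02 to 0.56) for G1/S members and 0.36 (-0.08 to 0.80) for the other G2/M members, which is partly set by the gate, since cells high in these genes tend to pass.

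The 37 members outside the gate can be compared between ACD T/NK/ILC-like cells that passed and those that did not. Passing cells were deeper, with a median of 11167 UMIs against 4828.5. All 19 remaining G2/M members were at least 2-fold higher in passing cells, 17 of them at least 8-fold, beside 6.42% and 1.39% of the 11437 genes tested outside the gate. Their median log2 ratio was 4.56, against -0.06 for all these genes. Hmmr, a spindle protein, stood at 81.2 in passing and 0.705 in other cells (log2 6.85), Ccna2, the cyclin of S phase and early mitosis, at 119 and 1.28 (log2 6.53), Cenpf at 183 and 2.31 (log2 6.31) and Bub1, a checkpoint kinase, at 36.3 and 0.705 (log2 5.69). Cenpa was lowest of this group at 277 and 107 (log2 1.38). The G1/S members followed the gate less, with a median of 1.71 and 14 of 18 at least 2-fold higher. Rrm2 stood at 284 and 19.4 (log2 3.87), Cdc6, a licensing factor, at 41.3 and 3.07 (log2 3.75) and Tk1, thymidine kinase, at 114 and 8.84 (log2 3.69). Ung, a uracil glycosylase, stood at 24.5 and 26.6 (log2 -0.12), Ccne1 at 53.3 and 44.0 (log2 0.28) and Mcm6 at 121 and 76.6 (log2 0.66).

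**Figure D4:**
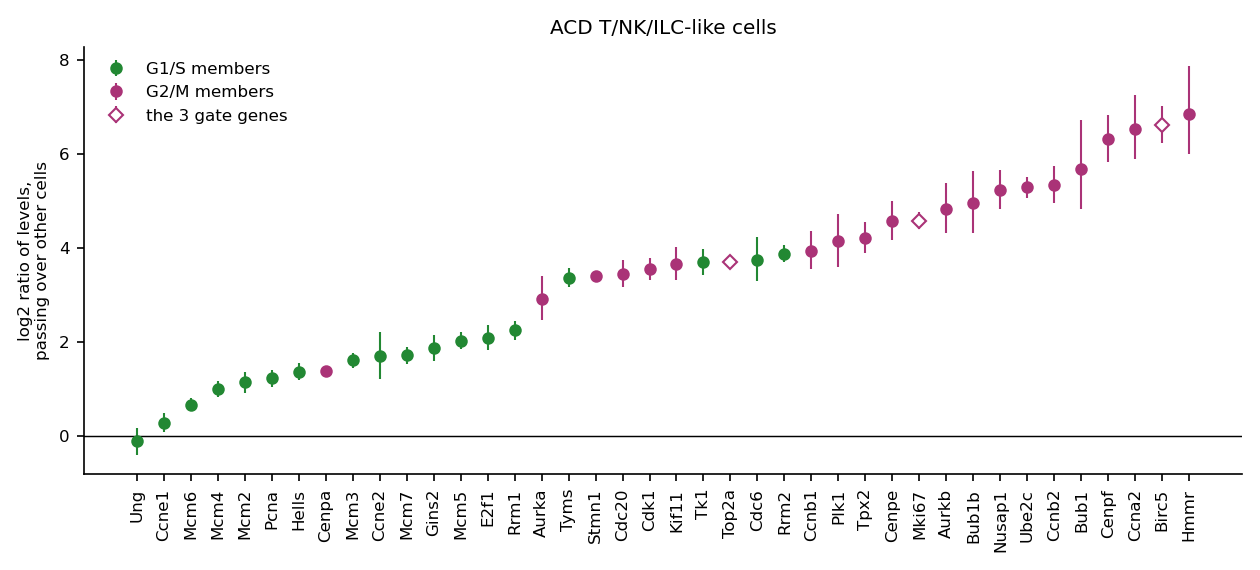
Log2 ratio of levels (y axis) in ACD T/NK/ILC-like cells that passed the gate over those that did not, for the 40 members in rising order (x axis), with 95% counting intervals; G1/S members are green, G2/M members purple, and the 3 gate genes, which chose the cells, are open diamonds. G1/S members fill the left side from -0.12 (Ung) and G2/M members the right side up to 6.85 (Hmmr), with Cenpa (1.38) among the G1/S members.

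The same sums were taken on either side of the gate. Passing cells held 16.3% of the UMIs of T/NK/ILC-like cells in control and 26.1% in ACD, and the gate itself depends on genes that move with these sums. In T/NK/ILC-like cells below the gate, G1/S members went from 307 to 484 (log2 0.66, 0.55 to 0.76), and the G2/M members outside the gate from 141 to 243 (log2 0.78, 0.63 to 0.93). These sums mix subsets, with 26 CD4+ and 9 CD8+ cells below the gate in control and 516 and 431 in ACD. By subset, the G1/S log2 ratio was 0.49 in CD4+, 0.06 in CD8+ and 0.41 in gamma-delta T-like cells and 0.27 in DETC. For the other G2/M members it was -0.89 (-1.35 to -0.39) in CD4+, 1.55 in CD8+ and 0.17 in gamma-delta T-like cells and 0.36 in DETC. In passing cells, G1/S members stood at 1669 and 1668 (log2 -0.00, -0.10 to 0.10), and the other G2/M members were lower in ACD, at 4415 and 2807 (log2 -0.65, -0.72 to -0.59). The control levels of passing cells rest on 62 cells, and these intervals treat UMIs of the same cell as independent. At least 5 G1/S UMIs were held by 3.63% of the control and 13.5% of the ACD cells below the gate, at median depths of 3382 and 4828.5 UMIs. Among passing cells, 54.8% in control and 48.2% in ACD held at least 3 UMIs of Plk1, Cdc20, Ccnb1, Ccnb2 and Aurka together, members that act late in G2 and in mitosis, against 0.130% and 0.591% of the cells below the gate.

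**Figure D5:**
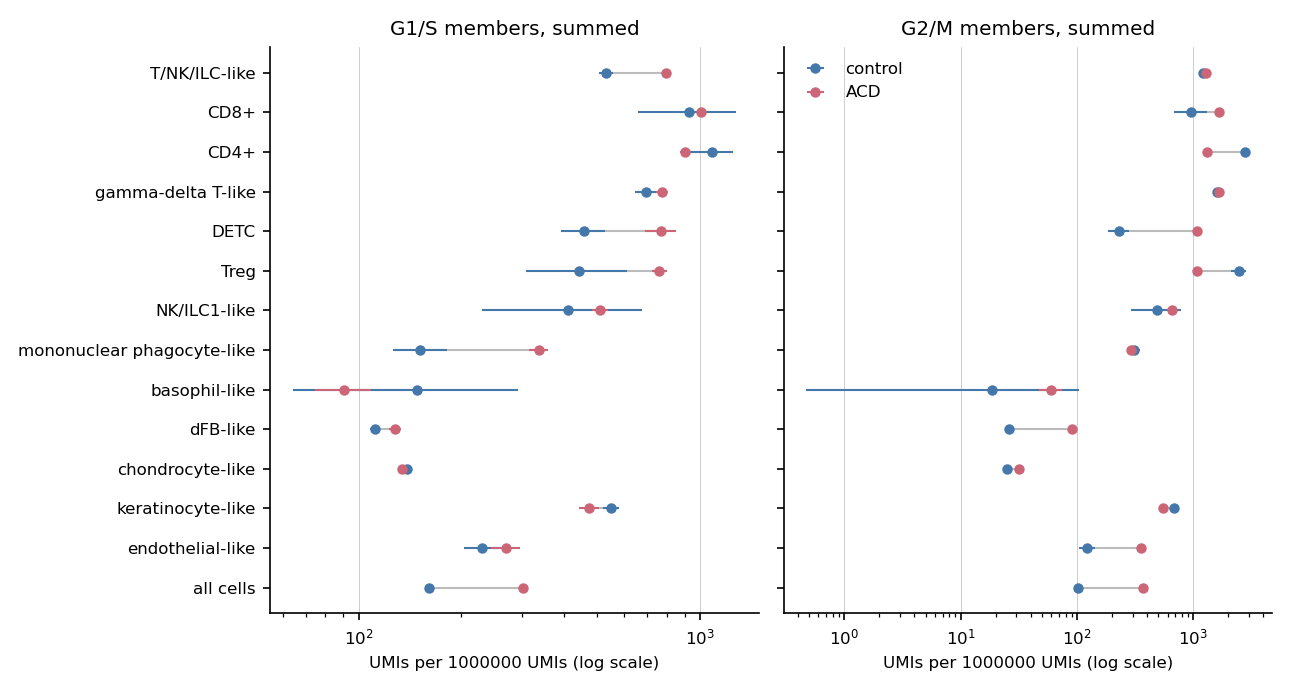
Summed level (UMIs per 1000000 UMIs, log scale, x axis) of the 18 G1/S members (left) and the 22 G2/M members (right) by class (y axis), in control (blue) and ACD (red), with 95% counting intervals. In T/NK/ILC-like cells the points part for G1/S (529 and 793) and nearly coincide for G2/M (1209 and 1289.6), whereas in dFB-like and endothelial-like cells they part for G2/M.

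In mononuclear phagocyte-like cells, 6 of 100 control cells (6%, 2.23 to 12.6) and 17 of 374 ACD cells (4.55%, 2.67 to 7.18) passed, with overlapping intervals. Thinned to 2000 UMIs, 0 of 93 and 1 of 271 passed. The class was made up differently, with 42 Langerhans-like and 17 dendritic cell-like cells among the 100 of control and 34 and 111 among the 374 of ACD. Their members split by phase. G1/S members went from 152 (126 to 181) to 336 (316 to 358), with a log2 ratio of 1.15 (0.88 to 1.43), and G2/M members stood at 309.8 (273 to 351) and 293 (274 to 314). Of the 30 members with enough UMIs, 6 were at least 2-fold higher in ACD, 5 of them in G1/S, beside 4.13% of the 9523 genes tested in mononuclear phagocyte-like cells, and of the 3 with 20 UMIs in control alone 0 were. Mcm6 went from 7.47 (2.74 to 16.2) to 31.8 (25.7 to 38.8), Mcm3 from 8.71 to 29.1, and Stmn1, the G2/M member among them, from 23.6 to 60.2 (log2 1.35, 0.66 to 2.11). Ube2c stood at 38.6 in control and 11.4 in ACD, and 27 of its 31 control UMIs came from 1 Langerhans-like cell, which is 2.38% of the 42 such cells. These values rest on few UMIs, 122 and 249 in control for the 2 groups. In dendritic cell-like cells 9 of 111 ACD cells passed (8.11%, 3.77 to 14.8). Of mast cell-like cells, 4 of 100 and 6 of 154 passed, 4% and 3.90%, at median depths of 1070 and 1751 UMIs. None of 71 neutrophil-like ACD cells passed, which allows a share of up to 4.23%, and none of 54 B cell-like ACD cells, which allows up to 5.56%.

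In dFB-like cells, 7 of 3718 control cells (0.188%, 0.0757 to 0.388) and 24 of 1675 ACD cells (1.43%, 0.92 to 2.12) passed, a log2 ratio of 2.93 (1.67 to 4.39). Thinned to 2000 UMIs, 2 control and 4 ACD cells passed (0.0543% and 0.240%), and the log2 ratio of 2.14 had an interval from -0.66 to 5.61. A gate of 1 UMI at this depth gave 13 of 3683 (0.353%) and 33 of 1666 cells (1.98%), a log2 ratio of 2.49 (1.52 to 3.54). Different clusters held most dFB-like cells in the 2 libraries. The cluster led by Postn and Tnc held 1688 control and 163 ACD cells, and the cluster led by Saa3 and Cxcl9 held 38 control and 641 ACD cells, with 4 and 18 passing cells. Within this last cluster the share was lower in ACD, at 10.5% in control and 2.81% in ACD. In the cluster led by Sfrp4 and Mfap5 it was 0.348% and 1.56%, from 2 and 4 passing cells. The class ratio thus mixes clusters that differed in number between the libraries. G2/M members went from 25.96 (24.2 to 27.9) to 90.4 (86.1 to 94.8), with a log2 ratio of 1.80 (1.68 to 1.92), and G1/S members from 112 to 128 (log2 0.20, 0.12 to 0.27). Of the 38 members with enough UMIs, 2 were at least 2-fold higher with 5 added, beside 1.15% of the 13476 genes tested in dFB-like cells. They were Ccnb2, a mitotic cyclin, which went from 0.471 (14 UMIs) to 7.76 (143 UMIs), and Ube2c, which went from 0.875 to 7.92. Birc5 went from 1.48 to 7.11, Mki67 from 1.25 to 5.32 and Top2a from 2.05 to 5.97. The levels are so low that the added 5 UMIs decide this count, and with nothing added their log2 ratios lay between 1.54 and 4.04.

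Markers of T cells moved with the gate in dFB-like cells. A Cd3 UMI was seen in 4 of the 7 passing control cells and 4 of the 24 passing ACD cells, beside 2.10% and 9.21% of those that did not pass. Of the 12 T/NK/ILC markers, 9 had a UMI in passing control cells and 11 in passing ACD cells, with Ncr1 at 0 in both and Cd2 and Lck at 0 in control. Their level summed to 951 in passing and 379 in other control cells, and to 1050.1 and 598 in ACD. Scrublet, a doublet caller, marked 5 of the 7 and 4 of the 24 passing cells. Without all cells it marked, the log2 ratio of the shares was 4.45. The part of these markers in the passing shares was not tested beyond that. Below the gate, the G2/M members outside it still went from 14.2 to 31.9 in dFB-like cells (log2 1.17, 0.98 to 1.35).

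Chondrocyte-like cells, the largest class, differed little. Of 5130 control cells 1 passed (0.0195%, 0.000494 to 0.109), and of 3731 ACD cells 2 passed (0.0536%, 0.00649 to 0.194). G1/S members stood at 139 and 134 (log2 -0.05, -0.10 to 0.01) and G2/M members at 25.2 and 31.6 (log2 0.33, 0.20 to 0.45). Of 36 members none was 2-fold higher, beside 0.546% of the 14098 genes tested in chondrocyte-like cells. Mcm4 and Pcna led the class with 25.3 and 24.4 in control and 22.2 and 23.8 in ACD, while Mki67 stood at 0.216 and 0.736.

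Keratinocyte-like cells passed often in both libraries. Of 179 control cells 19 passed (10.6%, 6.51 to 16.1), and of 136 ACD cells 21 (15.4%, 9.82 to 22.6), a log2 ratio of 0.54 (-0.43 to 1.52). With all deposited barcodes, 39 of 237 (16.5%) and 107 of 277 (38.6%) passed, a log2 ratio of 1.23 (0.69 to 1.80). They were deep cells, with medians of 14591 and 14275 UMIs, and thinned to 2000 UMIs 1.69% and 2.42% passed. Per UMI, the members stood slightly lower in ACD, with G1/S at 549 and 472 (log2 -0.22, -0.34 to -0.10) and G2/M at 680.3 and 543 (log2 -0.32, -0.44 to -0.21). With every cell counted equally, the G2/M log2 ratio was 0.24, so its direction depends on the weighting. Of the 37 members with enough UMIs, 2 were at least 2-fold lower, beside 1.06% of the 9834 genes tested in keratinocyte-like cells, and 0 were with all deposited barcodes or as a mean over cells. They were Cenpf, which went from 46.8 (117 UMIs) to 18.4 (34 UMIs), and Ccna2, which went from 22.0 to 8.13. Mki67 stood at 37.97 and 39.6, Top2a at 46.0 and 37.4, Birc5 at 38.8 and 44.5, and Stmn1 at 178 and 150.2. In passing cells, the other G2/M members stood at 3358 and 1318 (log2 -1.35, -1.51 to -1.19), and in cells below the gate at 157 and 202 (log2 0.37, 0.14 to 0.59). The passing levels rest on 19 and 21 cells, so their interval is too narrow. A Cd3 UMI was seen in 0 of 19 and 3 of 21 passing cells.

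Of endothelial-like cells, 0 of 169 passed in control, which allows a share of up to 1.78%, and 6 of 137 in ACD (4.38%, 1.62 to 9.29). All 6 lay in the cluster led by Fabp4 and Tmem252, which held 19 control and 36 ACD cells, and none in the cluster led by Ccl21a and Cldn5, with 150 and 101 cells. The median depth of the class was 5737 UMIs in control and 10577 in ACD, and thinned to 2000 UMIs 2.21% of ACD cells and 0 of 156 control cells passed, which allows up to 1.92%. Of the 24 members with enough UMIs, 11 were at least 2-fold higher, 10 of 11 in G2/M and 1 of 13 in G1/S, beside 3.38% of the 8955 genes tested in endothelial-like cells. Here too the called members reached the minimum through ACD, and of the 6 with 20 UMIs in control alone 0 were 2-fold higher. Mki67 had no control UMI and 25 in ACD, at 15.9 per 1000000, which puts its log2 ratio at 2.71 or more when 3 control UMIs are taken as the floor. Top2a went from 1.61 to 18.4, Birc5 from 1.61 to 21.6 and Cenpa from 4.84 to 32.3, while Stmn1 stood at 95.2 and 95.1. In G1/S, Mcm5 went from 2.42 to 10.8, and Tyms stood at 33.9 and 42.5, Pcna at 39.5 and 37.4 and Mcm4 at 26.6 and 25.4. Cells below the gate differed little, with log2 ratios of -0.07 for G1/S and -0.04 for the other G2/M members, a split that is again partly set by the gate. Of the 12 T/NK/ILC markers, 7 had a UMI in these 6 cells, with Cd3d, Cd3e, Cd3g, Ncr1 and Cd7 at 0, and the list summed to 412 against 420.5 in the other ACD cells of the class. Scrublet marked none of the 6.

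In other classes the passing cells were few. Of VSMC-like cells 0 of 399 and 4 of 239 passed, of muscle-like cells 0 of 101 and 4 of 136, of Schwann/glia-like cells 0 of 354 and 3 of 371, and of pericyte-like cells 1 of 231 and 1 of 109. A Cd3 UMI was seen in 2 of the 4 VSMC-like, 2 of the 4 muscle-like and 2 of the 3 Schwann/glia-like passing cells of ACD. Of unnamed cells 6 of 613 (0.979%) and 35 of 604 (5.79%) passed, and Scrublet marked 29 of these 35 ACD cells.

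Cell cycle genes outside the 40 were followed in 5 lists of 131 genes. In T/NK/ILC-like cells, 0 of 33 other S phase genes, 0 of 53 other G2/M genes, 0 of 21 cyclins, kinases and transcription factors and 0 of 12 inhibitors were at least 2-fold higher in ACD, and 1 of 12 histone genes was. Over all 11754 genes tested in this class, the share was 1.93%. The histone gene was Hist1h1b, a linker histone made in S phase, which went from 41.4 to 121 (log2 1.55, 1.30 to 1.81). As above, sums of this class mix subsets that differed in number between the libraries. Within subsets, Hist1h1b stood at 174 and 175 in CD4+ cells and at 147 and 171 in CD8+ cells. Those control values rest on 30 and 6 UMIs. Wee1, the kinase that restrains Cdk1, stood at 36.7 and 12.4 (log2 -1.57, -1.88 to -1.25) and Mycn at 25.2 and 6.44 (log2 -1.97, -2.37 to -1.56). Of the D cyclins, which carry growth signals into G1, Ccnd2 stood at 486 and 328, Ccnd3 at 359.7 and 310.6 and Ccnd1 at 11.2 and 4.78. Within subsets, Ccnd2 stood at 249 and 318 in CD4+ cells and at 195 and 258 in CD8+ cells. Ccnd3 stood at 313 and 319 in CD4+ cells and at 391 and 256 in CD8+ cells. The intervals of all these subset log2 ratios held 0. Of the inhibitors, Cdkn1a (p21) stood at 352 and 217 (log2 -0.70, -0.79 to -0.61), Cdkn1b (p27) at 216 and 185 and Cdkn2a at 2.66 and 3.03. Within subsets, Cdkn1a stood at 255 and 241 in CD4+ cells and at 97.7 and 113 in CD8+ cells. In DETC, Cdkn1a stood at 796 and 849.5 and Ccnd2 at 1098 and 970.0, and the intervals of both log2 ratios held 0. In dFB-like cells 0 of 31 other S phase and 0 of 45 other G2/M genes were at least 2-fold higher with 5 added, beside 1.15% of all genes tested. Among the histone genes, Hist1h2ap met this rule, at 5.05 in control and 15.4 in ACD (log2 1.02 with 5 added). At these low levels the added 5 hides differences. Cdca3, for example, chosen after its values were seen, stood at 0.539 and 4.07 (log2 2.92, 2.13 to 3.796, with nothing added). In endothelial-like cells 0 of 21 other S phase genes and 6 of 22 other G2/M genes were at least 2-fold higher, beside 3.38% of all genes tested. Among them was Spc24, a kinetochore subunit, with 1 UMI in control and 31 in ACD. It reached the minimum through ACD, so the count describes these genes and gives no separate support.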

How the data were processed

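Per the file headers and the methods, the authors aligned the reads with Cell Ranger (3.1.0 in the headers, 3.0.2 in the methods, Chromium 3′ kit v2) to the mm10 1.2.0 reference and deposited raw UMI counts for each gene in each barcode. The authors' own clusters, made with Seurat 2.0, were not used here. Cells were kept with over 200 and under 5000 genes, at most 25000 UMIs (the methods print this limit as a lower one; it was read as an upper one) and under 8% mitochondrial UMIs. Depth was 99037698 UMIs in control and 126566870 in ACD.

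Counts were scaled to 10000 UMIs per cell and clustered with scanpy 1.11.5 and leidenalg 0.10.2 (2000 variable genes, 30 components, 20 neighbours, resolution 1), and 39 clusters were named from marker lists. T/NK/ILC-like cells were clustered again into 14 groups, of which 2, with 143 cells, held markers of another class and were left unnamed. Subsets of T/NK/ILC-like cells were set by UMI gates (Tcrg-C1 is absent from the annotation). Scrublet, as run in scanpy, called 601 control (4.92%) and 429 ACD cells (3.68%) doublets, which were kept in the main values. Python 3.11.15, numpy 2.4.6, scipy 1.17.1 and pandas 2.3.3 were used, and the scripts were tested on simulated data. Thinning drew 2000 UMIs from each cell without replacement.

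With 1 library per condition, no p-values were computed. A 2-fold rule with 5 UMIs per 1000000 added and at least 20 UMIs over both libraries was read beside its share over all genes. The members, marker lists and other cell cycle lists were chosen with earlier results of these data known. Full values are given for Mki67, Top2a and Birc5 and for up to 3 members of each phase with the most UMIs in a class, and further members by role. Of other cell cycle genes, the rule took up to 5 with the largest ratio in each direction in a class, the D cyclins, Cdkn1a, Cdkn1b and Cdkn2a, of which a selection is printed. Cdk1 and Mcm6 were added to the promoters after their matches were seen, and Stmn1, the G2/M member with the most UMIs, had no entry there. By GENCODE M21, 7 members (Rrm1, Mcm7, Top2a, Stmn1, Tpx2, Kif11 and Nusap1) overlap another gene on the same strand, so reads of the pair may have been divided or dropped. Alternatives were other gates, depths, filters, doublet removal, pseudocounts, UMI minimums, size factors, a mean over cells and a 1-UMI gate in thinned cells (chosen after seeing the data). Further ones were marker gates in place of clusters and T sub-clusters in place of marker gates.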

Additional observations from a re-analysis of the deposited data

Results flagged for a closer look

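Barcodes that the filters left out of the main values also passed the gate. They enter only the values given with all deposited barcodes. Of barcodes with over 25000 UMIs or at least 5000 genes, 31 of 173 of the control library (17.9%, 12.5 to 24.5) and 278 of 668 of the ACD library (41.6%, 37.8 to 45.5) held at least 3 UMIs of Mki67, Top2a and Birc5, at median depths of 28596 and 31787.5 UMIs. The ACD value was singled out because it lies in data outside the main values and above control. These barcodes make up 22.3% of the 139 passing barcodes of control and 30.5% of the 912 of ACD. When placed in the classes by their profile, the passing ones of ACD were keratinocyte-like in 85 cases, T/NK/ILC-like in 84, unnamed in 32, dFB-like in 30, endothelial-like in 21, mononuclear phagocyte-like in 16 and chondrocyte-like in 8. Those of control were keratinocyte-like in 20 cases and dFB-like in 8.

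Of barcodes with at least 8% mitochondrial UMIs that met the other limits, 2 of 418 from control skin (0.478%, 0.0580 to 1.72) and 38 of 732 from ACD skin (5.19%, 3.70 to 7.06) passed, at median depths of 1164.5 and 1282 UMIs, and the ACD value was singled out on the same ground.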

How the results depend on the processing

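No paired analysis was possible because each condition had 1 library and no result came from a test, and leaving out a replicate was not possible either. Of 367 values recomputed under alternatives, 279 stayed within their counting interval or within 1.5 times, 87 moved further and 1 whose interval excluded 0 changed direction, the summed G2/M log2 ratio of keratinocyte-like cells, which was 0.24 as a mean over cells. With those whose interval held 0, 13 values changed sign. The causes were not tested, save that fewer members are counted at higher UMI minimums and fewer UMIs per cell when thinned. With a gate of 1 UMI, the log2 ratio of all cells was 2.15, and 45.5% of CD8+, 27.2% of DETC and 14.6% of endothelial-like ACD cells passed. For CD8+ cells, gates of 2 and 5 UMIs gave 32.8% and 20.8%. Thinning to 2000 UMIs gave a log2 ratio of 0.38 in T/NK/ILC-like cells, 10.02% of CD8+ ACD cells, and 89.6% of passing ACD cells in the T/NK/ILC-like class. Thinning to 1000 UMIs gave log2 ratios of 2.03 in all cells, 0.025 in T/NK/ILC-like and -0.40 in gamma-delta T-like cells, and ACD shares of 3.95% in CD8+ cells, 3.92% in DETC and 0.730% in endothelial-like cells. Marker gates in place of clusters put 61.2% of passing ACD cells in the T/NK/ILC-like class. With all deposited barcodes, this share was 64.4% (chosen after seeing the data), 32.0% of CD8+ and 14.6% of endothelial-like ACD cells passed, and the members at least 2-fold higher were 4 in T/NK/ILC-like, 26 in all, 16 in dFB-like and 28 in endothelial-like cells, beside 1.96%, 2.80%, 1.30% and 3.91% of all genes tested. Without Scrublet calls, the dFB-like log2 ratio was 4.45 and its count 4 (1.25% of all genes). With 1 UMI per 1000000 added, the counts were 2 in T/NK/ILC-like, 29 in all, 11 in dFB-like and 1 in gamma-delta T-like cells, beside 4.19%, 5.15%, 2.83% and 3.53% of all genes, and with 10 added 0 in T/NK/ILC-like, 6 in all and 0 in dFB-like cells, beside 1.35%, 1.84% and 0.831%. The count in DETC was 22 of 30 at a minimum of 10 UMIs (5.39% of all genes) and 3 of 6 at 50 (2.23%), and in endothelial-like cells 1 of 8 at 50 (3.04%). Size factors gave a count of 2 in T/NK/ILC-like cells (2.32% of all genes) and summed log2 ratios of 0.70 for G1/S and 0.21 for G2/M members, and means over cells gave 0.66 and 0.43 there and 0.36 for G2/M members in gamma-delta T-like cells.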

Other observations

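The set was also measured in smaller classes. Schwann/glia-like cells, of which 0 of 354 control cells and 3 of 371 ACD cells passed, held G2/M members at 307 and 354, of which the gate genes took 4.42 and 35.3. Mast cell-like cells stood at 837 (706.4 to 984) and 529.0 (456 to 610) for G2/M members and at 469.9 and 696 for G1/S members, from 146 and 82 UMIs in control. In muscle-like cells, G2/M members went from 40.0 (21 UMIs) to 366 (277 UMIs), with 4 passing cells in ACD. Melanocyte-like cells stood at 39.2 and 50.2 for G2/M members and at 199 and 200.1 for G1/S members, and none passed in either library.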
